A study of Canis lupus familiaris with 30 samples.

Results

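The genes described here are the potassium channel genes of 30 canine thyroid carcinomas (TC), chosen as every row of the deposited count table whose gene symbol starts with KCN, with *KCNJ15* left out. There were 86 such genes among the 30424 genes of the table. RNA was extracted from primary tumors of the canine thyroid gland, and a total RNA library depleted of ribosomal RNA was sequenced from each tumor. The study describes follicular carcinomas, which arise from the hormone-producing follicular cells, and medullary carcinomas, which arise from the calcitonin-producing C cells. The sample labels give the tissue, the cell type as tumor tissue, and a library name, and do not say which tumor is of which kind. Groups of tumors were therefore not compared, each tumor is called by its library name, and genes are described by their lowest, median and highest tumor. The labels name no treatment, age or batch.

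Potassium channels let potassium leave the cell and so set its resting potential, and they fall into families by structure and by what opens them. Voltage-gated channels open when the membrane depolarizes, calcium- and sodium-activated channels open when those ions rise inside the cell, and inward rectifiers and tandem-pore channels pass current near rest. Auxiliary subunits form no pore themselves and change the gating or trafficking of the pore-forming subunits. In the thyroid, a channel of *KCNQ1* with *KCNE2* is known to help follicular cells take up iodide through the sodium iodide symporter *SLC5A5*. C cells are electrically excitable, and calcium entry during their activity releases calcitonin. Vessel walls within any tumor carry channels of their own, among them the ATP-sensitive channel of *KCNJ8* and *ABCC9* in pericytes and smooth muscle and the *KCNMB1* subunit of the large-conductance calcium-activated channel in smooth muscle.

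Between 12288945 reads (TC538) and 45148677 reads (TC1869) were counted on genes per tumor. The size factor used to scale the counts ranged from 0.279 in TC538 to 1.62 in TC1218, with a median of 1.08. A level is log2 of the count divided by the size factor, plus 1. A count of 10 has an exact two-sided 95% Poisson interval of 4.80 to 18.4. A count of 0, with an upper 95% bound only, allows up to about 3 counts. These limits cover counting error only, and the reads carried no molecular identifiers. The potassium channel genes together took between 0.0268% (TC538) and 0.205% (TC1020) of the counts of a tumor, with a median of 0.0938%. Between 23 (TC538) and 62 (TC1473) of the 86 genes had at least 10 counts in a tumor, with a median of 51. Counts rise with transcript length, and no lengths were used here, so levels are compared between tumors for 1 gene and not between genes.

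The tumors were checked against lists of markers, each summarized as the mean level of its genes. For the follicular cell list, which had all its 12 genes in the table, this mean ranged from 3.43 (TC1088) to 15.28 (TC1869), with a median of 12.51. The mean of the C-cell list of 8 genes, among them *CALCA*, *RET*, *CHGB* and *SCG2*, was 15.09 in TC1936, 14.11 in TC1020, 13.60 in TC1601, 12.72 in TC1473 and 11.93 in TC2289. The next tumors were TC22 at 8.16 and TC1744 at 6.24, and the median was 4.27. TC1088 was low in both lists, with a C-cell mean of 3.47, and its thyroglobulin (*TG*) level was the lowest of all at 3.70. TC2288 held the highest mean of 3 parathyroid markers, 10.61 against a median of 2.23, and TC2089 and TC2402 the highest skeletal muscle means, 9.11 and 8.36 against a median of 5.35. These are bulk samples, so fewer cells of a type and less RNA per cell cannot be told apart.

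More of the family passed the count filter than of the table as a whole, fewer of its genes were counted in every tumor, and their levels spread more widely. Of the 86 genes, 70 (81.4%) had at least 10 counts in at least 5 tumors, the count filter, against 18711 (61.5%) of all genes. At least 10 counts in all 30 tumors were found for 16 of the genes (18.6%), against 36.8% of all genes. In no tumor were 10 counts reached by 5 of the 86 genes, against 8203 of the 30424 genes. The 5 were *KCNA10*, *KCNE5*, *KCNH6*, *KCNV1* and *KCNV2*. Every gene of the family carries a symbol, whereas 15780 of the 30424 genes do. The shares among genes with a symbol were not counted, so the family was not set against named genes alone. Among the 70 genes that passed, the median distance from the lowest to the highest tumor was 7.70 on the log2 scale, against 4.20 over the 18711 genes. The interquartile range, which is less sensitive to single tumors, had a median of 1.92 among the 70 genes and 1.10 over the 18711 genes. Genes were not matched by count for these spreads, and the 70 include *KCNH5* and *KCNN2*, with median counts of 2 and 3.5.

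By family, 27 of 36 voltage-gated genes, 7 of 8 calcium- or sodium-activated genes, 11 of 14 inward rectifiers, 13 of 14 tandem-pore genes and 12 of 14 auxiliary subunits passed the filter. The median interquartile range lay between 1.55 for the auxiliary subunits and 2.46 for the tandem-pore genes. Both ends of the spread were auxiliary subunits. *KCNIP3*, a calcium-binding protein also known as a transcriptional repressor, had an interquartile range of 0.56, at percentile 8.06 of all genes tested. *KCNMB2*, a beta subunit that inactivates the large-conductance calcium-activated channel, had 7.09, where the highest of any gene tested was 8.17.

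**Figure D1:**
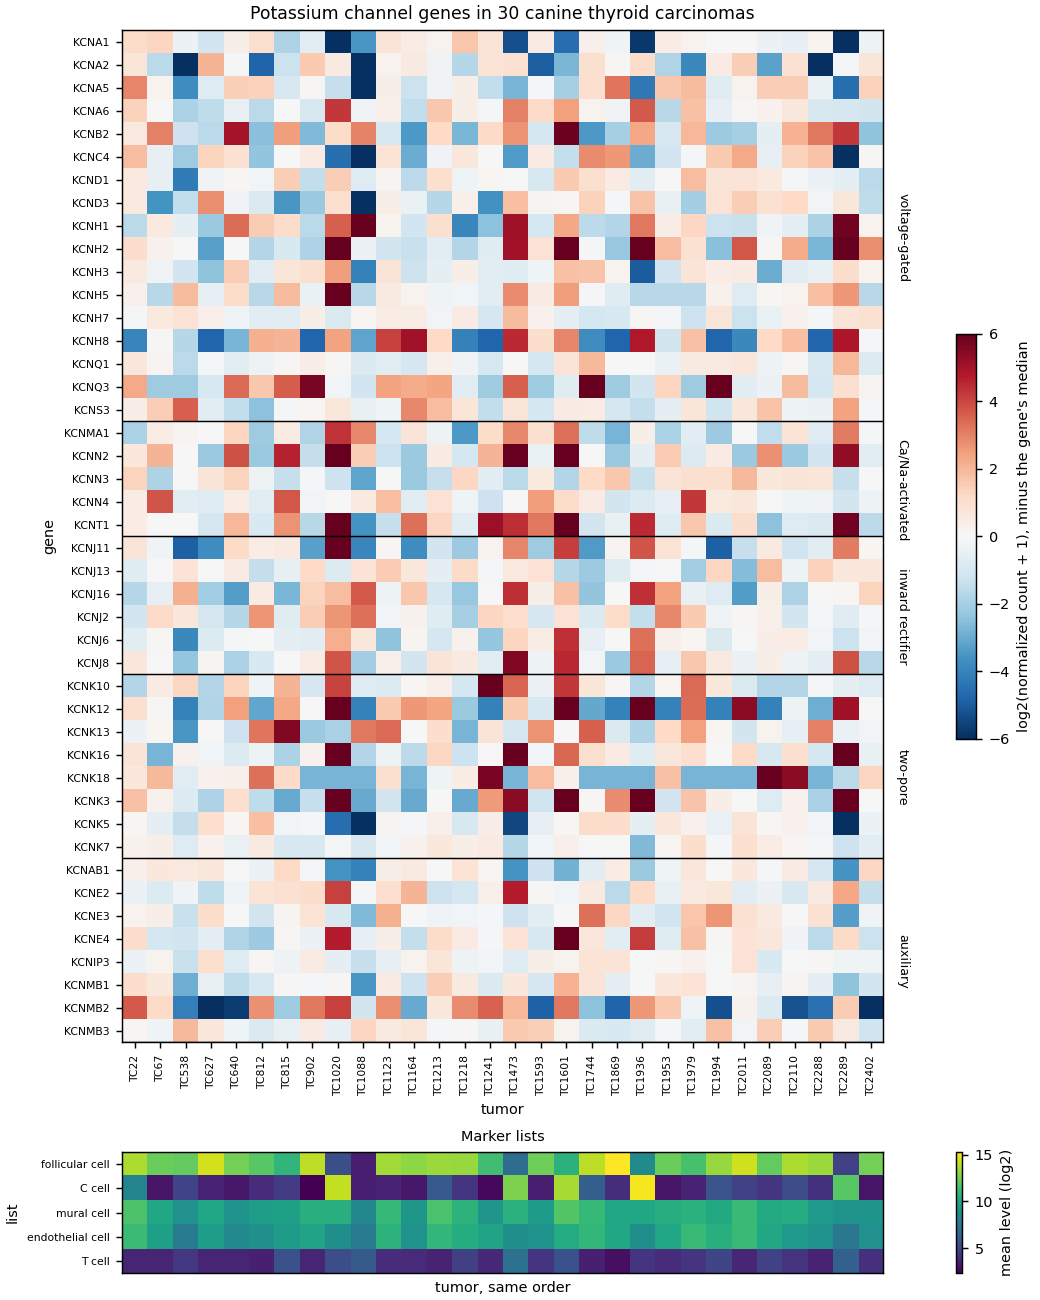
Level of 44 of the 70 potassium channel genes that passed the count filter, those named in the text (rows, by family), in each of 30 tumors (columns, by library name), as log2(normalized count + 1) minus the gene's median, with colors saturating at 6 in either direction. The lower panel gives the mean log2 level of 5 marker lists in the same tumor order; TC1020, TC1473, TC1601, TC1936 and TC2289, with C-cell means from 11.93 to 15.09, hold many of the dark red cells.

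The highest tumor of a gene was often 1 of a few tumors. TC1020 held the highest level of 15 of the 70 genes (21.4%), against 5.92% of all genes tested. TC1473 held that of 9 (12.9%, against 6.27%), TC1601 that of 7 (10%, against 5.57%) and TC2289 that of 5 (7.14%, against 6.15%). TC1936, the tumor with the highest C-cell mean, held it for 2 (2.86%, against 5.08%). TC538, the library with the smallest size factor, held the highest level of 20.0% of all genes and of 2 of the 70, *KCNS3* with 18 counts and *KCNMB3* with 7 counts.

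Among the voltage-gated genes, *KCNC4*, *KCNA1*, *KCNA5*, *KCNH7*, *KCND3* and *KCNH3* were among the 10 genes of the family with the highest median normalized counts. *KCNC4*, a subunit of fast delayed rectifiers, had a level of 3.49 in TC2289, a median of 10.85 and a highest level of 13.68 in TC1744, a 1285-fold difference. Below 8 lay TC2289, TC1088 (4.17), TC1020 (6.31), TC1473 (7.45), TC1164 (7.87) and TC1936 (7.89). *KCNA1*, a delayed rectifier of axons, ranged from 2.77 (TC1020, 6 counts) through a median of 10.62 to 12.30 (TC1218, 8173 counts). Its 6 lowest tumors were TC1020, TC2289 (4.24), TC1936 (4.83), TC1473 (5.36), TC1601 (6.03) and TC1088 (7.10), which are the 5 tumors high in C-cell markers and the tumor low in both marker lists.

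*KCNA5*, an ultrarapid delayed rectifier of the atrium and of smooth muscle, ranged from 3.17 (TC1088, 8 counts) through a median of 10.39 to 13.61 (TC1869, 14322 counts), and TC22 was next at 13.30. *KCNA2*, another axonal delayed rectifier, was at 0 counts in TC538, at a median of 8.41 and highest in TC627 at 10.43. It did not follow the pattern of *KCNA1* at its low end, since TC1936 (9.50) and TC1473 (9.33) were among its 7 highest tumors, while TC2288 had 3 counts and TC1088 had 4 counts. *KCND3*, a transient outward channel of the heart, had 3 counts in TC1088, a median of 9.43 and a highest level of 12.23 in TC627. *KCNH7*, which is related to the cardiac delayed rectifier *KCNH2*, was the steadiest of these, from 8.21 (TC2011) through 9.48 to 11.38 (TC1473), a 9.03-fold difference. *KCNH3*, a channel of the forebrain, ranged from 4.08 (TC1936) through 9.06 to 11.57 (TC1020), so that tumors high in C-cell markers stood at both ends of its range.

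Other voltage-gated genes were low in most tumors and high in a few. *KCNH2*, the gene of the rapid cardiac delayed rectifier, had its 5 highest levels in TC1020 (12.01, 4252 counts), TC1936 (11.98), TC1601 (11.31), TC2289 (10.88) and TC1473 (9.51). TC2011 followed at 8.15, the median was 4.45 and the lowest was TC627 with 1 count. These 5 are the tumors with the highest C-cell means. *KCNH1*, a channel of the brain that is often found in tumors, was highest in TC1088 (11.52, 2943 counts), followed by TC2289 (10.91) and TC1473 (10.14), against a median of 5.06 and a lowest level of 1.16 in TC1218. *KCNQ3*, a subunit of the neuronal M-current, was highest in none of these, but in TC1994 (9.23), TC1744 (8.57) and TC902 (7.86), and its median was 2.15.

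*KCNB2*, a delayed rectifier of neurons and endocrine cells, was highest in TC1601 (9.33), followed by TC640 (8.44) and TC2289 (7.69), with a median of 3.44 and 0 counts in 2 tumors. *KCNH8* had an interquartile range of 6.06, with 0 counts in 6 tumors and its highest levels in TC1164 (683 counts), TC2289 (596 counts), TC1936 (717 counts), TC1473 (660 counts) and TC1123 (504 counts). TC1164 and TC1123 had C-cell means of 3.13 and 3.56, so high *KCNH8* was not limited to tumors with high C-cell markers.

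*KCNQ1*, the pore of the iodide-associated channel, had counts in every tumor, from 6.03 in TC538 (18 counts) through a median of 7.67 to 9.67 in TC2289 (637 counts), a 12.6-fold difference. TC1744 was next at 9.63 and TC1601 followed at 8.45, so its highest 2 tumors stood 1.19 above the rest. *KCNE2*, its subunit, had 3 counts in TC538 and in TC627, its lowest counts, and a lowest level of 2.17 in TC1869 (4 counts). Its median was 3.77 and its highest tumors were TC1473 (8.48, 391 counts), TC1020 (7.86, 239 counts) and TC2289 (6.08, 52 counts). TC1164 followed at 5.79 and TC1936 at 4.98. TC1473, TC1020 and TC2289 had follicular cell means of 6.93, 5.44 and 4.85 and C-cell means of 12.72, 14.11 and 11.93. *KCNE3*, a subunit that holds *KCNQ1* open in epithelia, ranged from 5.10 (TC2289) through 8.39 to 11.71 (TC1744), followed by TC1994 (11.02) and TC1123 (10.52). TC1744 was thus the highest tumor for *KCNE3* and second for *KCNQ1*, whereas TC2289 was the highest for *KCNQ1* and the lowest for *KCNE3*.

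Of the calcium- and sodium-activated genes, *KCNMA1*, the pore of the large-conductance channel, was highest in TC1020 (12.92, 8010 counts), TC1601 (11.91), TC2289 (11.73), TC1088 (11.48) and TC1473 (11.48). The next tumor, TC640, was at 9.91, the median was 8.61 and the lowest was TC1218 at 5.17. TC1088, which was low in C-cell markers, was thus among the 5 highest tumors. *KCNN4*, the intermediate-conductance channel of red blood cells, lymphocytes and epithelia, was highest in TC1979 (11.45), TC67 (10.95) and TC815 (10.92), followed by TC1593 (9.69). Its lowest tumor was TC1241 at 5.96 and its median 7.20, a 45.7-fold difference between the ends. The C-cell means of the 3 highest tumors, 3.63, 3.03 and 4.55, lay near the median of that list.

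*KCNN3*, a small-conductance channel, ranged from 6.40 (TC1088) through 9.58 to 11.53 (TC2011). *KCNN2*, of the same small-conductance group, was at 9.47 in TC1473, 8.56 in TC1020, 8.30 in TC1601 and 7.54 in TC2289, with a median of 2.22 and 0 counts in 6 tumors. The sodium-activated *KCNT1* was highest in TC1601 (9.87), TC1020 (9.71) and TC2289 (9.44), followed by TC1241 (8.71), with a median of 3.60. These members of a shared group differed in where they were high, since *KCNN3* had TC1473 (7.98) and TC1601 (7.82) among its 6 lowest tumors.

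Among the inward rectifiers, both pores of ATP-sensitive channels had their 5 highest levels in the 5 tumors with the highest C-cell means. *KCNJ8*, the vascular form, was at 13.20 in TC1473 (10356 counts), 12.18 in TC1601, 11.46 in TC2289, 11.44 in TC1020 and 11.12 in TC1936, followed by TC1979 at 9.26. Its median was 7.64 and its lowest level 5.34 in TC538, 239-fold below the highest. *KCNJ11*, the form of pancreatic beta cells, was at 10.91 in TC1020 (1995 counts), 9.05 in TC1601, 8.69 in TC1936, 7.98 in TC2289 and 7.85 in TC1473, followed by TC640 at 6.05. The median of *KCNJ11* was 4.91, and TC1994 and TC538 had 0 counts. The order of the 5 tumors was not shared, since TC1473 was the highest for *KCNJ8* and the lowest of these 5 for *KCNJ11*. These pores were not the only inward rectifiers with these 5 highest tumors. How many genes of the family or of the table had the same 5 was not counted, here or for *KCNH2* and *KCNK3*.

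*KCNJ16*, which pairs with other rectifiers in kidney and stomach epithelia, was highest in TC1473 (11.27), TC1936 (11.23) and TC1088 (10.52), then in TC1953 (9.25), against a median of 6.85 and a lowest level of 3.51 in TC2011. *KCNJ13*, a weak rectifier of transporting epithelia, ranged from 3.62 (TC2011) through 6.24 to 8.09 (TC2089), and its highest 7 tumors held none of those high in C-cell markers. In the UU_Cfam_GSD_1.0 assembly, which was not the one counted on, *KCNJ13* overlaps *GIGYF2*. Whether reads of the 2 genes were separated was not tested. *KCNJ2*, the main strong rectifier of muscle, was highest in TC1088 (10.70), TC1953 (10.29), TC812 (10.07) and TC1020 (10.05), against a median of 7.41, while TC2089 and TC2402, the tumors with high skeletal muscle means, were not among its highest 7.

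The 2 widest ranges among the 70 genes were those of tandem-pore genes. *KCNK16*, a channel of pancreatic islets, was at 12.34 in TC1020 (5360 counts), 9.63 in TC1473 (868 counts), 9.00 in TC2289 (398 counts) and 6.19 in TC1601 (84 counts). TC1213 came next with 19 counts, the median was 2.77, and TC67 had 0 counts. *KCNK3*, an acid-sensitive leak channel, was at 12.18 in TC1936 (4388 counts), 10.80 in TC1601, 10.66 in TC1020, 10.37 in TC2289 and 8.43 in TC1473. The next tumor, TC1869, was at 5.85, the median was 3.02 and 4 tumors had 0 counts. As for *KCNH2*, these 5 tumors were those with the highest C-cell means. *KCNK12*, which gives little current on its own, was highest in TC1936 (10.72), TC1020 (10.22), TC1601 (10.16), TC2011 (9.43) and TC2289 (9.14), with a median of 4.03 and 0 counts in 7 tumors, so that TC2011, with a C-cell mean of 4.89, stood among them.

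*KCNK5*, an acid-sensitive channel of transporting epithelia, had the opposite shape, with a high median of 10.97 and a few low tumors. TC812 was the highest at 12.77 (7641 counts), and the lowest were TC1088 (4.17, 17 counts), TC2289 (4.66), TC1473 (5.51) and TC1020 (6.38), with the next, TC538, at 9.52. TC1936 (10.40) and TC1601 (11.05), also high in C-cell markers, were not among the low tumors. Their follicular cell means were above those of the 4 low tumors, which ran from 3.43 to 6.93.

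Other tandem-pore genes stood far higher in 1 to 3 tumors than in the next. *KCNK10*, a stretch-sensitive channel, had 613 counts in TC1241 and 73 in the next tumor, TC1601. *KCNK13*, a channel of microglia, had 646 counts in TC815 and 144 in TC1744. *KCNK18*, a channel of sensory neurons, had 372 counts in TC2089, 364 in TC1241 and 344 in TC2110, then 74 in TC812, and 0 counts in 12 tumors. An auxiliary subunit showed the same kind of pattern, since *KCNIP1* had 2051 counts in TC1088, 18 in TC2288 and 16 in TC538, and did not pass the count filter. *KCNIP1* and *KCNMB1* overlap in the UU_Cfam_GSD_1.0 assembly, and TC1088 had 7 counts of *KCNMB1*.

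Among the auxiliary subunits, *KCNAB1*, a beta subunit of the *KCNA* channels, had a high median of 10.97 and ranged from 6.93 (TC1088) to 12.20 (TC2402). Its 6 lowest tumors were TC1088, TC1020 (7.37), TC1473 (7.40), TC2289 (7.45), TC1601 (8.12) and TC1936 (8.74), the 6 tumors that were also lowest for *KCNA1*. *KCNIP3* ranged from 8.25 (TC1088) through 9.64 to 10.63 (TC627), a 5.21-fold difference, and was the narrowest of the 70 genes. *KCNMB1* ranged from 3.00 (TC1088) through 6.47 to 8.56 (TC1601). *KCNMB2* was at 11.73 in TC1020, 11.32 in TC22 and 11.17 in TC1241, with a median of 7.64 and 0 counts in TC627 and TC2402. *KCNE4*, which inhibits some *KCNQ* and *KCNA* channels, was at 11.29 in TC1601, 9.79 in TC1020 and 9.28 in TC1936, followed by TC1979 at 6.86, with a median of 5.09. The gene next to *KCNE4* in the UU_Cfam_GSD_1.0 assembly was *SCG2*, a gene of the C-cell list.

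**Figure D2:**
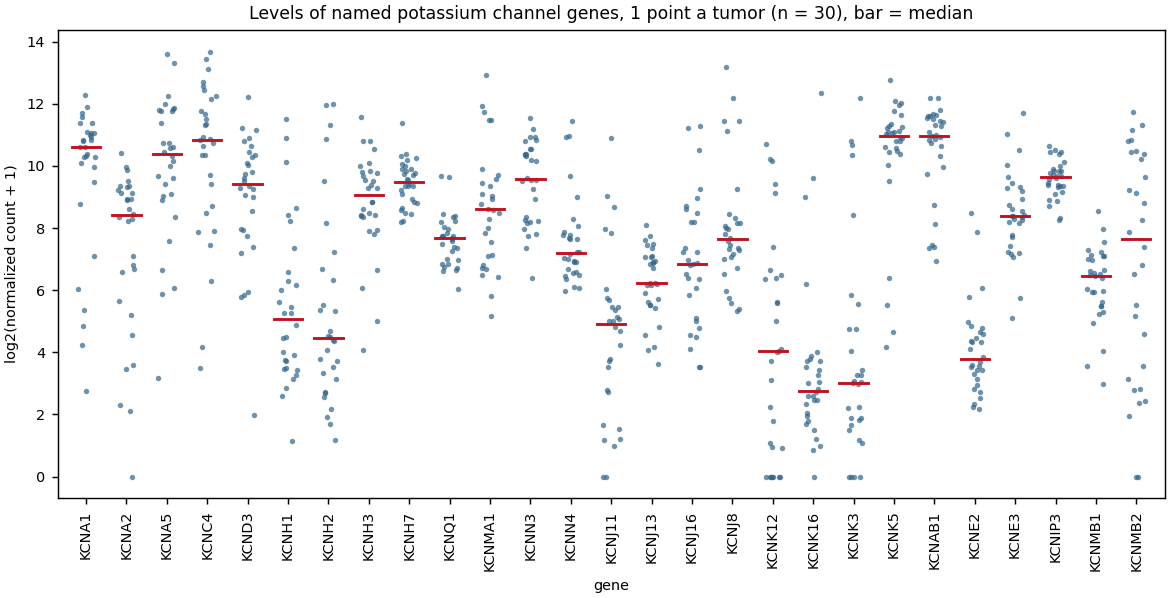
Level, as log2(normalized count + 1), of the named potassium channel genes in 30 tumors (1 point a tumor, spread sideways at random within a gene; the bar is the median). KCNIP3 has the narrowest range, from 8.25 to 10.63, and KCNK16 and KCNK3 have low medians, 2.77 and 3.02, with single tumors above 12.

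To ask which genes moved with the cell types in a tumor, levels were correlated with 6 marker lists. A Ward clustering of the tumors on 745 variable genes outside the family gave branches of 25 and 5 tumors, the smaller one TC1020, TC1473, TC1601, TC1936 and TC2289. Correlations were taken within the 25 tumors, because coefficients across separate clusters or over so few tumors are not interpretable. Each gene's Spearman rho was tested against 1000000 shared permutations with Benjamini-Hochberg adjustment over 18711 genes, two-sided, and an adjusted p below 0.05 was called. Named relations have permutation p-values from 100000 draws, of which 1e-05 is the smallest they can give.

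With the follicular cell list, 1 of the 70 genes was called, *KCNC4*, with a positive rho, against 0.412% of all genes with a positive and 0.144% with a negative rho, genes of the list itself included. *KCNC4* rose with the list from 4.17 in the tumor with the lowest mean to 13.46 in that with the highest. Spearman's rho was 0.78 (p = 2e-05, adjusted p = 0.00823) and Pearson's r was 0.82 (p = 1e-05). Without TC1088 and TC815, the 2 tumors farthest from the median of the list, r was 0.67 (p = 0.00058). In the UU_Cfam_GSD_1.0 assembly *KCNC4* overlaps *LOC111096345* and *LOC102152925*, and whether their reads were separated was not tested. The gene for the iodide symporter, *SLC5A5*, which is on the list, had a rho of 0.79.

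Members with a role in the thyroid or in transporting epithelia were not called. *KCNQ1* had a rho of 0.46 (adjusted p = 0.313), *KCNE3* 0.56 (adjusted p = 0.161), *KCNIP3* 0.56 (adjusted p = 0.160), *KCNE2* -0.29 (adjusted p = 0.633) and *KCNJ16* -0.42 (adjusted p = 0.379). Their r was 0.34 (p = 0.0890), 0.60 (p = 0.00151), 0.62 (p = 0.00018), -0.17 (p = 0.455) and -0.50 (p = 0.00773). Without TC1088 and TC815 these r values were 0.45, 0.45, 0.54, -0.28 and -0.40. *KCNAB1* had an r of 0.70 (p = 0.0244) but a rho of 0.08, and its r was 0.09 without TC1088 and TC815. Without TC1088 alone, where *KCNAB1* and the list were both lowest, rho was -0.035. At an unadjusted p below 0.05, which a share of about 0.05 of unrelated genes would pass, 16 of the 70 genes passed, 10 of them with a positive rho. Counts at this threshold, here and below, stand without the share over all genes, which was not counted. No excess of the family over other genes can therefore be read from them.

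The lists of vessel wall cells gave more calls. With the mural cell list, of smooth muscle and pericyte genes, 8 of the 70 genes were called, all with a positive rho, against 2.84% of all genes tested, and 0 with a negative rho, against 1.76%. With the endothelial list, 10 were called with a positive rho, against 4.84%, and 0 with a negative rho, against 4.88%. The median rho of the 70 genes was 0.24 with the mural list and 0.21 with the endothelial list, against 0.02 over all genes tested for both. The 8 genes called with the mural list were also called with the endothelial list, and the lists themselves had a rho of 0.90 (p = 1e-05) and an r of 0.90 over these tumors.

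*KCNMB1* had the highest rho with the mural list among the genes of the family, 0.91 (p = 1e-05, adjusted p = 0.000197), with an r of 0.88 (p = 1e-05) and of 0.86 without TC1088 and TC22 (p = 1e-05). Its level was 3.00 in the tumor with the lowest mural mean, TC1088, and 7.54 in that with the highest, TC22. *KCNQ1* followed with a rho of 0.78 (p = 2e-05, adjusted p = 0.000985), an r of 0.74 (p = 2e-05) and an r of 0.73 without the same tumors (p = 7e-05). The rho of *KCNQ1* was thus called with the vessel wall lists and not with the follicular list, a difference that was not itself tested.

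*KCNE4* had the highest rho of the family with the endothelial list, 0.85 (p = 1e-05, adjusted p = 0.000141), with an r of 0.79 (p = 1e-05) and of 0.90 without TC1088 and TC538 (p = 1e-05). Its mural rho was 0.78 (adjusted p = 0.00136). The counts of *KCNE4* in these 25 tumors were low, from 4 in TC538 to 143 in TC1979. *KCNJ8*, the vascular ATP-sensitive pore, had a mural rho of 0.77 (p = 4e-05, adjusted p = 0.00175), an r of 0.74 (p = 4e-05), and an r of 0.68 without TC1088 and TC22 (p = 0.00032). Among the other called genes were *KCNA6*, a delayed rectifier, and *KCND1*, a transient outward channel, with rho of 0.60 and 0.60 for the mural and 0.61 and 0.72 for the endothelial list. Their r was 0.56 (p = 0.00391) and 0.54 (p = 0.00428) for the mural list, and 0.55 and 0.55 without TC1088 and TC22. With the endothelial list alone, *KCNE3* was called (rho 0.60, adjusted p = 0.0324; r = 0.67, and 0.52 without TC1088 and TC538). So was *KCNK7*, a silent tandem-pore subunit (rho 0.55, adjusted p = 0.0491, r = 0.61, and 0.46 without the same tumors). In the UU_Cfam_GSD_1.0 assembly *EHBP1L1* overlaps *KCNK7*.

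*KCNMA1*, the pore that *KCNMB1* modulates in smooth muscle, had a negative rho with both lists, -0.56 with the mural (adjusted p = 0.0639) and -0.53 with the endothelial list (adjusted p = 0.0611), and was not called. Its r with the mural list was -0.56 (p = 0.00333) and -0.43 without TC1088 and TC22 (p = 0.0413). Its highest level in the 25 tumors was in TC1088 at 11.48, the tumor with the lowest mural mean. The level of *KCNMB1* and that of *KCNMA1* had a rho of -0.44 (adjusted p = 0.290) and an r of -0.53, which was -0.32 without TC1088 and TC1218 (p = 0.130).

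**Figure D3:**
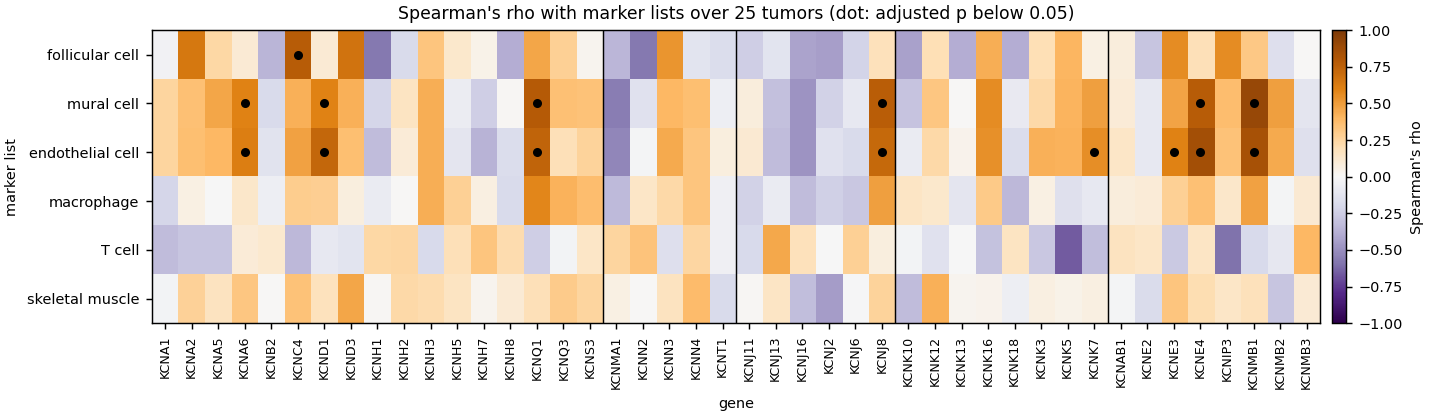
Spearman's rho (color) of 44 of the 70 potassium channel genes that passed the count filter, those named in the text, with the mean level of 6 marker lists over 25 tumors, with a dot where the adjusted p over 18711 genes was below 0.05. Of these genes, 6 have a dot with the mural cell list, 8 with the endothelial list and 1, KCNC4, with the follicular cell list.

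Depth moved with these lists. Over the 25 tumors the mural mean had a rho of 0.64 with the size factor (p = 0.00068; r = 0.54, p = 0.00434) and the endothelial mean a rho of 0.50 (p = 0.0131; r = 0.51, p = 0.00843). When the ranks of lists and genes were corrected for the size factor, an alternative chosen after seeing the data, 4 genes were called with the mural list and 6 with the endothelial list. Over all 18711 genes, positive calls were then 257 and 342, against 532 and 906 without the correction. Without TC538, the shallowest library, the numbers were 5 and 8, and 383 and 537 over all genes. Among the genes named, *KCNA6* and *KCND1* then missed the threshold with the mural list (adjusted p = 0.117 and 0.120), and *KCNA6*, *KCNE3* and *KCNK7* with the endothelial list (0.0800, 0.0899 and 0.114). Without TC1088, *KCNA6* and *KCND1* missed it with the mural list (0.0574 and 0.0844) and *KCNE3* and *KCNK7* with the endothelial list (0.0698 and 0.0977). When each list was corrected for the other, 0 genes of the family were called with either by the same permutation test, and 5 and 7 passed an unadjusted p below 0.05. Over all genes, 2 were then called with the mural and 35 with the endothelial list. With lists at a rho of 0.90 to each other, this test did not tell mural and endothelial content apart for these genes.

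Immune and muscle lists gave no calls. With the T-cell list, 0 of the 70 genes were called by the permutation test, against 0.0428% of all genes with a positive rho, and 6 passed an unadjusted p below 0.05. With the macrophage list the call count was also 0, against 0.369%, and 6 passed the unadjusted threshold. *KCNN4*, which activated lymphocytes use, had a rho of 0.24 with the T-cell list (adjusted p = 0.489; r = 0.29, p = 0.164) and of 0.33 with the macrophage list (adjusted p = 0.874; r = 0.21, p = 0.309). With the skeletal muscle list, 0 genes of the table were called, and 4 of the 70 passed the unadjusted threshold.

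**Figure D4:**
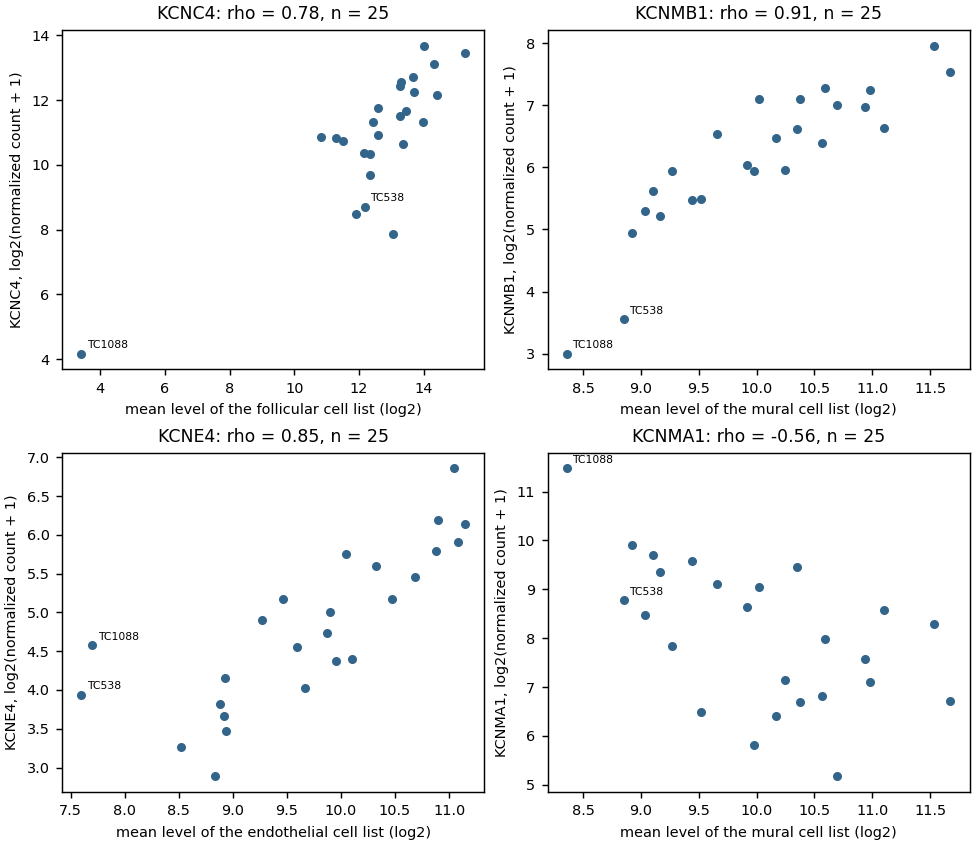
Level of 4 potassium channel genes, as log2(normalized count + 1), against the mean log2 level of a marker list, 1 point a tumor (n = 25), with TC1088 and TC538 named. KCNC4 rises with the follicular cell list (rho 0.78), KCNMB1 with the mural list (rho 0.91) and KCNE4 with the endothelial list (rho 0.85), while KCNMA1 lies lower where the mural mean is higher (rho -0.56, adjusted p = 0.0639).

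Genes that work with the channels but lie outside the family were taken from a list of 30, of which 28 were in the table and 24 passed the filter. With the mural list 1 of the 24 was called, *ATP1B2*, a beta subunit of the sodium pump (rho 0.67, adjusted p = 0.0190). With the endothelial list 2 were called, *ATP1B2* (0.72, adjusted p = 0.00506) and *ATP1A4*, an alpha subunit known from sperm (0.71, adjusted p = 0.00699). Of all genes tested, 2.84% were called with a positive rho with the mural and 4.84% with the endothelial list. With the other 4 lists 0 of the 24 were called by the permutation test.

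Finally, 9 pairs of a channel gene and a partner or chromosomal neighbor were compared over the 25 tumors, each adjusted over all 18710 other genes tested. *KCNJ11* and *ABCC8*, the sulfonylurea receptor that assembles with it, had a rho of 0.84 (p = 1e-05, adjusted p = 0.0187), an r of 0.82 (p = 1e-05) and an r of 0.85 without TC1218 and TC627 (p = 1e-05). *KCNJ11* ranked first of 18710 genes by rho with *ABCC8* and was the 1 gene called, 0.00534% of those tested. These genes are neighbors in the UU_Cfam_GSD_1.0 assembly. The vascular counterparts, *KCNJ8* and *ABCC9*, are also neighbors and had a rho of 0.56 (p = 0.00424, adjusted p = 0.0635) and an r of 0.48 (p = 0.0157), which was 0.37 without TC1869 and TC812 (p = 0.0844). With *ABCC9*, 1.99% of genes were called, and *KCNJ8* ranked 560 by rho. *ABCC9* itself had a rho of 0.29 with the mural list (adjusted p = 0.368).

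*KCNE3* and *KCNQ1* had a rho of 0.59 (p = 0.00218, adjusted p = 0.0248) and an r of 0.64 (p = 0.00052), which was 0.44 without TC1744 and TC538 (p = 0.0345). This was 1 of many relations of *KCNQ1*, since 8.06% of all genes tested were called with a positive rho. *KCNE2* and *KCNQ1* had a rho of -0.09 (adjusted p = 0.782) and an r of -0.05. *KCNA1* and *KCNA6*, the neighbors of *KCNA5* in the UU_Cfam_GSD_1.0 assembly, had rho of 0.26 (adjusted p = 0.427) and 0.32 (adjusted p = 0.313) with it, and 1.17% of all genes were called. The r of *KCNA1* with *KCNA5* was 0.60 and fell to 0.16 without TC1088 and TC538 (p = 0.472). *KCND3* and *KCNA2* had rho of 0.67 (adjusted p = 0.0552) and 0.53 (adjusted p = 0.181) with *KCNC4*, with which 0.433% of genes were called.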

How the data were processed

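A total RNA library with ribosomal RNA removed was made from each of 30 canine TC. Per the labels and the study's methods, paired-end reads were aligned by STAR to CanFam3.1 with Ensembl genes, and the values the authors deposited are the raw read counts of its gene counting, with no scaling. Its strand setting is not given in the sources used here, so reads of overlapping genes may not be separated. By symbol, 86 of 86 genes matched a RefSeq table of the UU_Cfam_GSD_1.0 assembly, where 42 overlap another gene. It served for gene order and overlaps, and the reads were not counted on it. Among the 42 were *KCNC4*, *KCNA6* (with *GALNT8*), *KCNH1* (with *HHAT*), *KCNH3* (with *MCRS1*) and *KCNH7* (with *GCA*).

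The labels put no tumor in a group, so no groups were compared. Counts were divided by median-of-ratios size factors over 15611 genes with a count in every tumor, and a pseudocount of 1 was added before log2. A gene was tested where 5 or more tumors held 10 or more counts of it. Branches came from Ward clustering on genes outside the family (mean level over 2, variance over 6). Members and lists were chosen with earlier results of these data known. Named genes are members with a known partner or thyroid role, the 10 with the highest median normalized count, the 10 with the widest range, up to 3 per list and direction by rho among calls, and *ABCC8*, *ABCC9* and *SLC5A5*; results of some genes are not reported here, and others were named after their values were seen. *KCNA3*, *CD247*, *TYROBP*, *LMOD1*, *PRX*, *NCMAP*, *ADIPOQ*, *FABP4* and *AMIGO1* were not analysed here. The lists for nerve and fat cells were scored without a test, with highest means of 4.98 and 6.76. Tools were Python 3.11.15, numpy 2.4.6, scipy 1.17.1, pandas 2.3.3, matplotlib 3.10.9, and edgeR 4.0.16 in R 4.3.3 for TMM. The correlation step was tested on simulated data.

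The alternatives were TMM-scaled counts, a pseudocount of 8, no count filter, a filter of 50 counts in 5 tumors, leaving out TC1088 or TC538, and the median of the marker levels. Partner genes in place of lists and the corrected list means were added after seeing the data.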

Additional observations from a re-analysis of the deposited data

How the results depend on the processing

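The number of genes called with a positive rho changed by more than 1.5 times in these settings. With the follicular cell list it was 1, and 2 with TMM-scaled counts, 3 with the median of the marker levels and 2 after correction for the size factor. With the macrophage list it was 0, and 1 with TMM-scaled counts and 1 without TC538. With the mural list it was 8, and 5 without TC538, 4 after correction for the size factor and 0 after correction for the endothelial list. With the endothelial list it was 10, and 6 after correction for the size factor and 0 after correction for the mural list. The number with a negative rho with the endothelial list was 0, and 1 with the median of the marker levels, *KCNMA1* (rho -0.57, adjusted p = 0.0463). The calls over all 18711 genes follow for the same settings, in the same order. Positive calls were 77, then 77, 170 and 74 with the follicular cell list. With the macrophage list they were 69, then 102 and 83. They were 532, then 383, 257 and 2 with the mural list. With the endothelial list they were 906, then 342 and 35. Negative calls with the endothelial list were 914, then 739. The cause of these changes was not tested.

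Some coefficients changed sign. *KCNAB1* with the follicular cell list went from 0.08 to -0.035 without TC1088 and to -0.11 with the median of the marker levels. *KCND1* with the mural list went to -0.18 after correction for the endothelial list. With the endothelial list, *KCND1* was at 0.53 after correction for the mural list (adjusted p = 0.544). Across the alternatives set at the start, rho with the mural list lay between 0.89 and 0.93 for *KCNMB1* (adjusted p from 0.000156 to 0.000305) and between 0.76 and 0.81 for *KCNQ1* (0.000334 to 0.00394), and that of *KCNC4* with the follicular cell list lay between 0.75 and 0.78 (0.00673 to 0.0349). *KCNE4* with the endothelial list lay between 0.85 and 0.90 (0.000117 to 0.000216). *KCNA6* and *KCND1* with the mural list and *KCNA6*, *KCNE3* and *KCNK7* with the endothelial list had an adjusted p above 0.05 without TC538. With no count filter this held for *KCNA6* (0.0688) and *KCND1* (0.0693) with the mural list and *KCNK7* (0.0716) with the endothelial list, and with the median of the marker levels for *KCNK7* (0.0860). After correction for the size factor it held for *KCNA6* (0.508) and *KCND1* (0.211) with the mural list, and for *KCNJ8* (0.0598), *KCNA6* (0.230) and *KCNK7* (0.143) with the endothelial list. Median levels of the named genes moved by less than the spread between tumors, except that of *KCNJ3*, which is 0 and follows the pseudocount. Genes below about 10 counts in most tumors are limited by depth, most in TC538. No paired analysis was possible because the labels give no groups and no shared replicate numbers.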

Other observations

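Levels of *KCNJ3* and *KCNK5* fell into separate clusters, with a gap of at least 3 on the log2 scale and at least 2 tumors on each side. *KCNJ3*, a G-protein-gated rectifier of heart and neurons, was at 11.97 in TC1473 (4414 counts) and 9.45 in TC2289 (544 counts). Below the gap lay TC1936 at 2.65 (5 counts), TC1601 at 2.62 (6 counts), and TC1164 at 1.20, TC2089 at 1.15, TC1088 at 1.00 and TC1744 at 0.95 with 1 count each, and 22 tumors had 0 counts. *KCNJ6*, which can assemble with *KCNJ3*, was at 8.26 in TC1601, 7.21 in TC1936, 6.08 in TC1020 and 5.19 in TC1473, and at 2.61 (4 counts) in TC2289, so the tumors high in the one were not those highest in the other.

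*KCNK5* stood between 4.17 and 6.38 in TC1088, TC2289, TC1473 and TC1020, and between 9.52 (TC538) and 12.77 (TC812) in the other 26. The C-cell means of the 4 tumors below the gap were 3.47, 11.93, 12.72 and 14.11. TC1936, with the highest C-cell mean, 15.09, was above the gap at 10.40.

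A few genes with low counts stood far higher in 1 tumor than in the next. *KCNH5*, a channel of the brain, had 410 counts in TC1020 and 24 in TC1473, the next tumor. *KCNG4*, a silent voltage-gated subunit, had 41 counts in TC1241 and 4 in TC1218. *KCNU1*, a channel of sperm, had 57 counts in TC2289 and 2 or fewer in the other tumors, of which 22 had 0. *KCNJ4*, a strong rectifier, had 86 counts in TC1088, where *KCNJ2*, *KCNH1* and *KCNIP1* were also highest, and 15 in TC1218.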
